A study of Mus musculus with 4 samples.

Results

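Transcripts of 9 genes that build the cell-surface Toll-like receptors were followed in sorted mouse pro-B cells: the receptors Tlr1, Tlr2, Tlr4, Tlr5 and Tlr6, the co-receptor Cd14, the receptor-like gene Cd180, and Ly86 and Ly96, which encode the small secreted partner proteins MD-1 and MD-2. They were taken by symbol from the 24411 genes of the deposited count table. All 9 were present and all 9 passed the filter on low counts, so each was tested. The study sorted pro-B cells, early B cell precursors carrying B220, CD43 and HSA (the heat-stable antigen CD24), from bone marrow of C57BL/6 mice. There were 2 control mice (numbers 55 and 69), of genotype Tnpo3+/+ mb1Cre, and 2 knockout mice (51 and 63), of genotype Tnpo3fl/fl mb1Cre. All mice thus shared mb1Cre, in which the B-lineage gene Cd79a drives the Cre recombinase, and only the knockouts carried floxed alleles of Tnpo3, which encodes a nuclear import receptor for splicing factors. Age is not given in the sources used here. Each library came from its own mouse, so each SD describes the spread between 2 animals. Standard errors, intervals and p-values come from a fit that also draws on the variation of other genes.

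Toll-like receptors recognise microbial molecules through a horseshoe of leucine-rich repeats and signal through an intracellular TIR domain. TLR4 binds bacterial lipopolysaccharide only together with MD-2, to which CD14 hands the lipid. TLR2 pairs with TLR1 or with TLR6 to detect bacterial lipopeptides, and TLR5 detects flagellin. CD180, also called RP105, resembles TLR4 outside the cell but has no TIR domain. It reaches the surface with MD-1 much as TLR4 does with MD-2, and is known from B cells and dendritic cells, where it modulates responses to lipopolysaccharide.

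The 250 bases before the annotated start are shown for Cd180 and Ly86, the pair that rose together, and for Tlr1, the member that fell furthest. The sequences and starts are from RefSeq on GRCm38.p6, 5′ to 3′ on the gene's own strand. Gene positions given further on are from GENCODE, whose start of Ly86 lies 137 bases upstream of the RefSeq start, so that the last part of this window is inside the GENCODE gene. For Tlr1 the starts differ by 5 bases. Capitals mark exact matches, on either strand, to the letters GGAAGT (found in sites of ETS factors such as PU.1), ATGCAAA (octamer type) or CAGGTG (E-box).
Cd180, chr13:102693308-102693557, plus strand: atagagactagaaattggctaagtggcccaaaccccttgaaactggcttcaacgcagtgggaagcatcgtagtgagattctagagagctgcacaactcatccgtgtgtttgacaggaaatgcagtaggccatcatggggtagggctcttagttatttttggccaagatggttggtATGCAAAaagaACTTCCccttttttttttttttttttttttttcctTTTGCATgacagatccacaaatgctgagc
Ly86, chr13:37345095-37345344, plus strand: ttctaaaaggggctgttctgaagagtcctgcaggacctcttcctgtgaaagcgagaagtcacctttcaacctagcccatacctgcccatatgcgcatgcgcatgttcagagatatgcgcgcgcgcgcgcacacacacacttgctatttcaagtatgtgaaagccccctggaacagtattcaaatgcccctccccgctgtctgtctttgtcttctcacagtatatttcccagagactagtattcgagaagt
Tlr1, chr5:64933559-64933808, minus strand: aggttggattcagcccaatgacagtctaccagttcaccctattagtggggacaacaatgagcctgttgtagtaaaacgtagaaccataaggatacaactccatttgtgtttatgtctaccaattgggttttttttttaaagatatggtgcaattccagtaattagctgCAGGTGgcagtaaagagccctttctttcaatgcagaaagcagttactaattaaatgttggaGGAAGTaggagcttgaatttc
The Cd180 window held 2 matches to ATGCAAA, 1 on each strand, and 1 to GGAAGT. Among all 32851 promoter windows of this length, 4.12% held ATGCAAA at least once, 0.247% held it 2 or more times and 19.7% held GGAAGT. The Tlr1 window held 1 GGAAGT and 1 CAGGTG, the latter found in 17.2% of windows. The window of Tlr2, a member that was not called, also held 1 of each and is not shown. The Ly86 window held none of the 3 motifs. These matches describe letters only. The promoter table was used for 6 members. Tlr4, Ly96 and Cd14 were not examined in this way.

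Total counts were 26211372 to 40647384 per library. Tnpo3 fell by 1.05 ± 0.14 (SE) on the log2 scale in the knockouts, and passed the quasi-likelihood test of edgeR over all 13507 genes tested (adjusted p 0.0108). Without knockout 63 its adjusted p was 0.0603. Cell type marker transcripts also differed between the genotypes, where 22.2% of all genes tested were called. The knockouts had less transcript of pro-B genes (9 of 12 fell and 3 were not called; summed level 9108 to 11078 CPM in controls and 2761 to 3508 CPM in knockouts, where CPM is the count scaled to a common library total). They had more transcript of dendritic cell genes (12 of 14 rose and 2 were not called; 688 to 1348 CPM against 7917 to 10531 CPM), of which 8 rose without knockout 63. Among the antigens of the sort, Cd24a (HSA) fell from 2095 ± 268 to 536 ± 66.9 CPM (SD, n = 2; edgeR adjusted p 0.00725). Spn, which encodes CD43, rose from 210.2 ± 72.4 to 419.7 ± 33.9 CPM (0.0492), a call lost without control 55 (0.0528), knockout 51 (0.142) or knockout 63 (0.105), and without scaling (0.0541). Ptprc, which encodes the protein that carries B220, was at 560.5 ± 267.7 and 960.2 ± 69.1 CPM and was not called (0.168). Counts of bulk RNA cannot tell fewer cells of a type from less RNA per cell, and this holds for every result below. All pro-B and dendritic markers had counts in both genotypes. Mouse 55 and mouse 63 were female by their Xist and Ddx3y counts, and mice 69 and 51 male, so each genotype held 1 of each sex.

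Of the 9 genes, 2 were called higher in the knockouts (Cd180 and Ly86), 2 lower (Tlr1 and Tlr4) and 5 were not called at an adjusted p of 0.05. Across all genes tested, 22.2% were called, 11.3% higher and 10.9% lower. The median log2 fold change was -0.05 over the 9 genes and -0.02 over all genes tested. The genotypes did not overlap for 7 of the 9 genes, 3 with both knockouts above both controls and 4 with both below, against 67.5% of all genes tested (33.0% above and 34.6% below). Members thus moved in both directions.

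**Figure D1:**
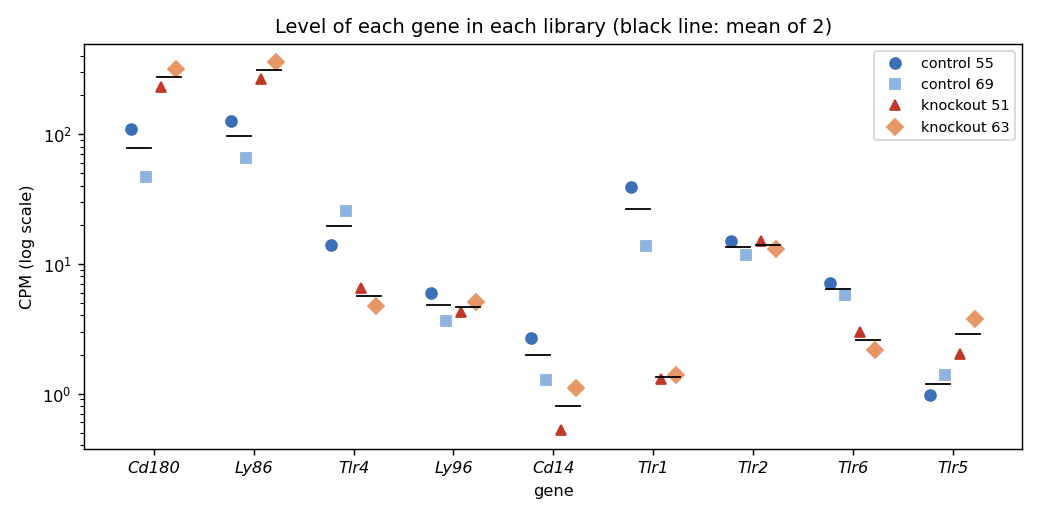
Level of each of the 9 genes in each of the 4 libraries, in CPM on a log axis, with a black line at the mean of each genotype (n = 2). Cd180 and Ly86 lie highest and are higher in both knockouts, Tlr1 drops from 39.3 and 13.8 CPM to 1.29 and 1.39 CPM, and Tlr2 and Ly96 overlap between genotypes.

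The receptor-like pair was the most abundant. Cd180 (GRCm38 chromosome 13, 102693558 to 102739629, plus strand) was at 110 CPM in control 55, 46.8 CPM in control 69, 230 CPM in knockout 51 and 317 CPM in knockout 63, from raw counts of 3584, 1246, 9276 and 9543. Both knockouts lay above both controls, and the controls differed from each other by a larger ratio than the knockouts did, though by less in CPM. The mean rose 3.49-fold, from 78.2 ± 44.4 to 273 ± 61.5 CPM (SD, n = 2), with a log2 fold change of 1.80 ± 0.42 (SE) and an edgeR adjusted p of 0.0363. Exons of Cd180 share 182 bases, 4.04% of their length, with the gene Mast4 on the opposite strand, and without a known strand setting reads from that stretch cannot be assigned. Mast4 was at 73.2 CPM in control 55, 33.8 CPM in control 69, 26.7 CPM in knockout 51 and 27.0 CPM in knockout 63, the opposite direction to Cd180, and was not called (edgeR adjusted p 0.113).

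Ly86, which encodes the MD-1 partner of CD180 (chromosome 13, 37345208 to 37419036, plus strand), was at 127 CPM in control 55, 65.3 CPM in control 69, 267 CPM in knockout 51 and 357 CPM in knockout 63. The order of the 4 libraries was that of Cd180, and the genotypes again did not overlap. The mean rose 3.25-fold, from 96.2 ± 43.7 to 312 ± 63.6 CPM (SD, n = 2), and the fitted log2 change was 1.70 ± 0.35 (SE) with an edgeR adjusted p of 0.0268. Divided by exon length, the ratio of Ly86 to Cd180 within a library was 1.44 in control 55, 1.73 in control 69, 1.44 in knockout 51 and 1.40 in knockout 63, so the balance of the pair varied little while both levels changed. Both calls rested on knockout 63. Without it the log2 fold change was 1.56 for Cd180 and 1.48 for Ly86, with edgeR adjusted p-values of 0.0952 and 0.0704.

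The genes whose profile over the 4 libraries was most like that of each of the pair were found by the distance between log2 CPM values centred on their mean. For Cd180 the nearest were Map3k19, Mctp2 and Mfhas1, at distances of 0.0864, 0.101 and 0.116. Mctp2, for example, was at 124 CPM in control 55, 56.8 CPM in control 69, 263 CPM in knockout 51 and 349 CPM in knockout 63. For Ly86 they were Sowahc, Gm7120 and Fgd2, at 0.107, 0.132 and 0.138. Fgd2 was at 112 CPM in control 55, 55.6 CPM in control 69, 229 CPM in knockout 51 and 277 CPM in knockout 63. Ly86 was the 17th nearest gene to Cd180, and Cd180 the 22nd nearest to Ly86, at a distance of 0.242. With 4 libraries in 2 genotypes, many genes have profiles this close.

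The lipopolysaccharide receptor behaved differently from its relative. Tlr4 (chromosome 4, 66827584 to 66930284, plus strand) was at 13.9 CPM in control 55, 25.5 CPM in control 69, 6.51 CPM in knockout 51 and 4.75 CPM in knockout 63. Both knockouts were below both controls, and control 69, the lower control for Cd180, was the higher one here. The mean fell from 19.7 ± 8.23 to 5.63 ± 1.25 CPM (SD, n = 2), a level 3.49 times lower, with a log2 fold change of -1.80 ± 0.38 (SE) and an edgeR adjusted p of 0.0283. With a knockout left out the fall stayed but the call did not: the log2 fold change was -2.05 without knockout 51 (adjusted p 0.0538, edgeR) and -1.59 without knockout 63 (0.0986).

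Ly96, the MD-2 partner without which TLR4 does not bind lipopolysaccharide (chromosome 1, 16688051 to 16709611, plus strand), was at 5.99 CPM in control 55, 3.61 CPM in control 69, 4.24 CPM in knockout 51 and 5.04 CPM in knockout 63. The knockouts lay between the controls. The log2 fold change was -0.05 ± 0.38 (SE), with a 95% interval from -0.998 to 0.894 and an edgeR adjusted p of 0.933. Changes inside that interval, in either direction, were not excluded. Per unit of exon length the ratio of Tlr4 to Ly96 was 0.425 in control 55, 1.30 in control 69, 0.283 in knockout 51 and 0.173 in knockout 63. The ratio was lower in both knockouts, but it also differed widely between the controls. Per length again, Cd180 exceeded Tlr4 by 9.75 times in control 55, 2.26 times in control 69, 43.5 times in knockout 51 and 82.2 times in knockout 63.

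Cd14, the co-receptor that hands lipopolysaccharide to MD-2 (chromosome 18, 36725067 to 36726798, minus strand), was scarce. Its level was 2.66 CPM in control 55, 1.28 CPM in control 69, 0.520 CPM in knockout 51 and 1.095 CPM in knockout 63, from 87, 34, 21 and 33 counts. The knockouts lay below the controls, knockout 63 only just below control 69. The log2 fold change of -1.30 ± 0.63 (SE) had a 95% interval from -2.87 to 0.27 and was not called (edgeR adjusted p 0.192). It was -0.64 without control 55, -0.85 without knockout 51 and -1.92 without knockout 63, not called in any of these.

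The sharpest change was in the lipopeptide receptors. Tlr1 (chromosome 5, 64924679 to 64933563, minus strand) was at 39.3 CPM in control 55, 13.8 CPM in control 69, 1.29 CPM in knockout 51 and 1.39 CPM in knockout 63, from raw counts of 1287, 366, 52 and 42. The controls differed widely from each other, and the lower of them was still far above both knockouts. The mean fell from 26.5 ± 18.1 to 1.34 ± 0.0749 CPM (SD, n = 2), a level 19.8 times lower. The log2 fold change was -4.31 ± 0.58 (SE), with a 95% interval from -5.76 to -2.85 and an edgeR adjusted p of 0.0108. Of the 4 called members, Tlr1 alone was still called with each library left out in turn, at log2 fold changes from -4.87 to -3.32.

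Tlr6 lies beside Tlr1 (chromosome 5, 64952031 to 64960097, minus strand) and encodes the alternative partner of TLR2. It was at 7.15 CPM in control 55, 5.75 CPM in control 69, 2.997 CPM in knockout 51 and 2.16 CPM in knockout 63. Both knockouts were below both controls, with means of 6.45 ± 0.99 CPM in controls and 2.58 ± 0.59 CPM in knockouts (SD, n = 2). The log2 fold change was -1.32 ± 0.35 (SE), and the edgeR adjusted p of 0.0509 missed the threshold narrowly. Under 5 of 11 alternative settings Tlr6 was called, among them DESeq2, with an adjusted p of 0.011. None of the 5 left out a library. With a library left out Tlr6 was not called, at log2 fold changes from -1.58 to -1.10. Tlr1 and Tlr6 are close copies: 454 of the 50-base windows in their GENCODE transcripts, 13.6% of those of Tlr1 and 12.3% of those of Tlr6, occur in both genes. How reads from such windows were counted is not given in the sources used here. These shares do not bound the error, since reads from the more abundant copy can weigh more on the other. Tlr1 had 1287 and 366 counts in controls 55 and 69, against 234 and 153 for Tlr6. In knockouts 51 and 63 Tlr1 had 52 and 42 counts, against 121 and 65 for Tlr6. The part of such reads in the values of either gene, or in the fall of Tlr6, was not tested. With all other genes included, 513 windows of Tlr1, 15.4%, occur elsewhere. In the RefSeq models the 2 genes are 19491 bases apart, and the 5 other tested genes with bodies within 300 kb of the pair (Klf3, Fam114a1, Klhl5, Wdr19 and Rfc1) were not called, with log2 fold changes from -0.56 to 0.56. In those models the bodies of Tlr6 and Fam114a1 overlap, whereas in GENCODE no other gene overlaps Tlr6. Whether their RefSeq exons overlap was not examined, so any effect on the counts is not known.

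Tlr2, the shared subunit of both lipopeptide receptors (chromosome 3, 83836272 to 83841767, minus strand), was at 15.1 CPM in control 55, 11.7 CPM in control 69, 14.98 CPM in knockout 51 and 13.1 CPM in knockout 63. Both knockouts lay within the range of the controls. The log2 fold change was 0.07 ± 0.24 (SE), with a 95% interval from -0.54 to 0.68 and an edgeR adjusted p of 0.864. That interval does not hold the fitted fall of Tlr1 or of Tlr4, though the difference between genes was not tested. Within each library and per unit of exon length, Tlr1 was at 2.34 times Tlr2 in control 55 and 1.06 times in control 69, but at 0.0774 times in knockout 51 and 0.0958 times in knockout 63. Transcript of the shared subunit thus overlapped between genotypes, while that of its partner was far lower in both knockouts.

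Tlr5, the flagellin receptor (chromosome 1, 182954788 to 182976044, plus strand), was the least abundant receptor in the controls. It was at 0.978 CPM in control 55, 1.39 CPM in control 69, 2.01 CPM in knockout 51 and 3.78 CPM in knockout 63, from 32, 37, 81 and 114 counts. Both knockouts were above both controls, but knockout 63 was far above knockout 51. The log2 fold change of 1.29 ± 0.51 (SE) had an edgeR adjusted p of 0.129 and was not called. Without knockout 63 it was 0.77 (adjusted p 0.509, edgeR).

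**Figure D2:**
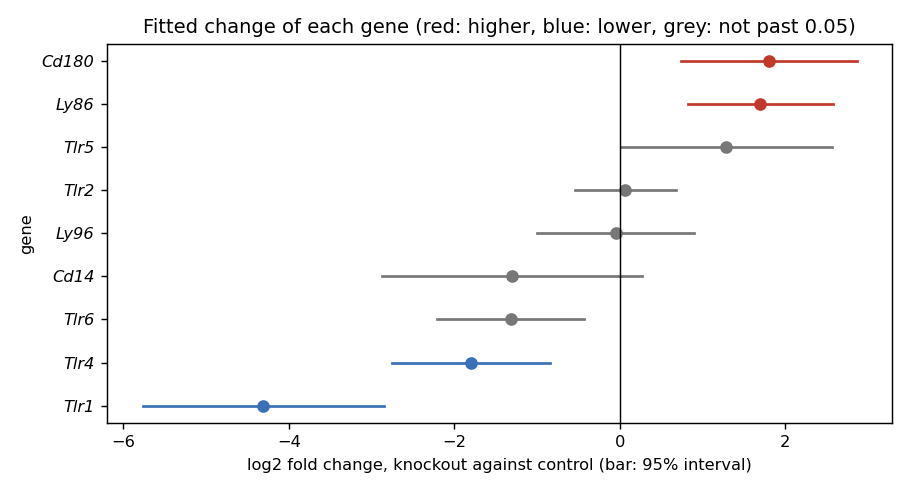
Log2 fold change of knockout against control for each of the 9 genes, with 95% intervals from the edgeR fit; red and blue mark genes with an adjusted p under 0.05. Tlr1 stands lowest at -4.31, Cd180 and Ly86 highest at 1.80 and 1.70, and the intervals of Tlr2, Ly96 and Cd14 cross 0.

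Per unit of exon length, the order of mean levels in the controls was Ly86 (26.5 CPM per kb), Cd180 (17.4), Tlr1 (7.93), Ly96 (4.70), Tlr2 (4.45), Tlr4 (3.54), Tlr6 (1.73), Cd14 (1.14) and Tlr5 (0.247). In the knockouts it was Ly86 (86.0 CPM per kb), Cd180 (60.6), Tlr2 (4.66), Ly96 (4.54), Tlr4 (1.01), Tlr6 (0.691), Tlr5 (0.604), Cd14 (0.466) and Tlr1 (0.401). In the controls the ranges over the 2 libraries overlapped between every pair of neighbours from Ly86 down to Tlr4, and between none of the neighbours from Tlr4 to Tlr5. In the knockouts they overlapped between Tlr2 and Ly96 and between neighbours from Tlr6 to Tlr1, and not between Ly86 and Cd180. Tlr1 moved from rank 3 to rank 9. Cd180 and Ly86 together made up 67.3% of the summed per-length level of the 9 genes in control 55, 60.3% in control 69, 91.1% in knockout 51 and 93.1% in knockout 63.

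Counting only the 5 receptors with a TIR domain, the summed level was 21.4 CPM per kb in control 55, 14.4 CPM per kb in control 69, 7.75 CPM per kb in knockout 51 and 6.99 CPM per kb in knockout 63. Tlr1 held 55.0% of that sum in control 55 and 28.5% in control 69, but 4.97% in knockout 51 and 5.96% in knockout 63. Tlr2 held 23.5% in control 55, 26.9% in control 69, 64.1% in knockout 51 and 62.2% in knockout 63, and so was the leading surface Toll-like receptor transcript in the knockouts, with a level of its own that overlapped between genotypes. In control 69 Tlr4, at 31.8%, was the leading transcript.

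**Figure D3:**
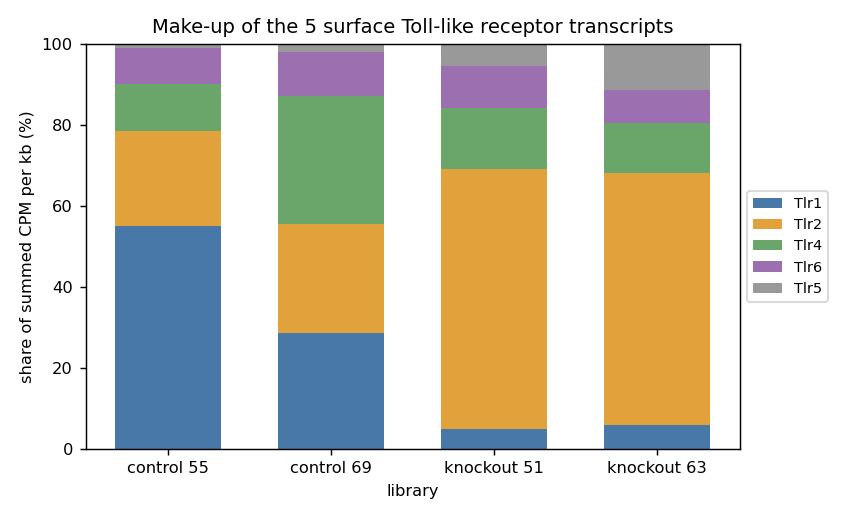
Share of each of the 5 TIR-domain receptors in their summed level per kb of exon, in percent, for each library. Tlr1 shrinks from 55.0% and 28.5% in the controls to 4.97% and 5.96% in the knockouts, where Tlr2 holds 64.1% and 62.2%.

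Transcripts that mark other blood cells moved in the same libraries. Neutrophil genes fell (13 of 13 measured), from a summed 3789 to 4796 CPM in controls to 53.1 to 221 CPM in knockouts, and none was at 0 in either genotype. Of eosinophil, basophil and mast cell genes, 6 of 9 tested fell and 3 were not called, from 150 to 310 CPM in controls to 5.18 to 5.33 CPM in knockouts, where Ear2 was at 0. Monocyte and macrophage genes split: 5 of 12 rose and 5 fell (3 without control 69 and 3 without knockout 63), with sums of 492 to 526 CPM in controls and 1059 to 1494 CPM in knockouts. Within that list Lyz2, the lysozyme gene, and Adgre1, which encodes F4/80, fell, while Ly6c2 and Ccr2 rose. Ly6c2 alone was at 84.3 CPM in control 55, 48.5 CPM in control 69, 1152 CPM in knockout 51 and 768 CPM in knockout 63. It thus held most of the knockout sums, and the median log2 fold change of the list was -0.47. Neutrophils and monocytes are known to carry TLR1, TLR2, TLR4, TLR6 and CD14, and the part of these cells in the values of those genes was not tested.

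Genes of later B cells fell as well (7 of 7, or 4 without knockout 51). Their summed level was 1489 CPM in control 55, 518 CPM in control 69, 88.8 CPM in knockout 51 and 154 CPM in knockout 63, and Ms4a1, which encodes CD20, was at 630 and 172 CPM in controls 55 and 69. Control 55 was thus the higher control for these genes, as it was for every member but Tlr4 and Tlr5. It was also the higher control for every other marker sum but that of pro-B genes, so this order is not particular to later B cell genes. Tlr1 also fell with the later B cell genes in the knockouts, whereas Cd180 and Ly86 rose. Dendritic genes were likewise higher in control 55 (1348 CPM) than in control 69 (688 CPM), and higher still in both knockouts, the library order of Cd180 and Ly86. NK cell genes (8 of 10 rose and 2 were not called) reached 806 CPM in knockout 51 and 234 CPM in knockout 63, against 28.3 to 34.1 CPM in controls. No marker of the later B, dendritic or NK lists was at 0 in a genotype. The part of these cells in the results was not tested.

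**Figure D4:**
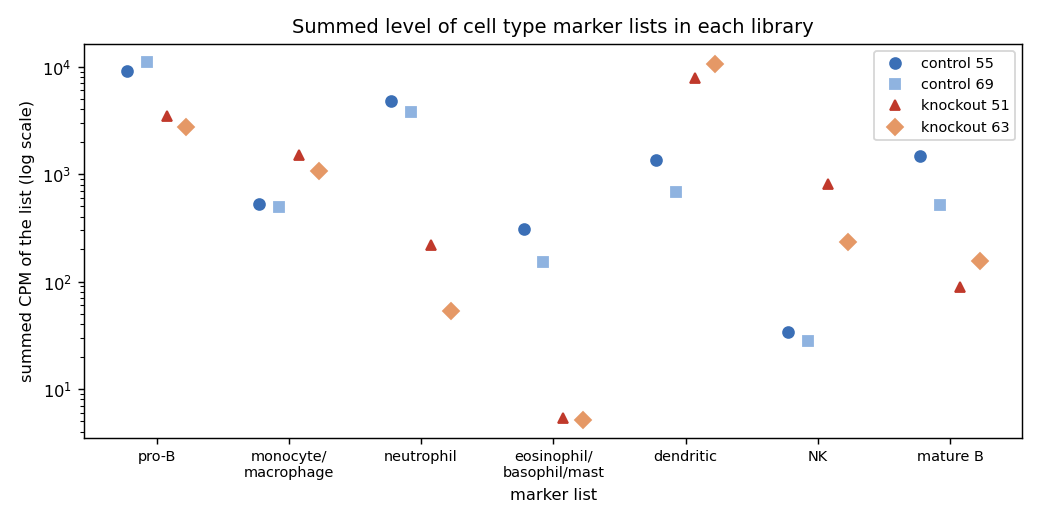
Summed CPM of 7 lists of cell type markers in each library, on a log axis. Pro-B, neutrophil, eosinophil/basophil/mast and mature B sums are lower in both knockouts, dendritic, NK and monocyte/macrophage sums higher. The higher monocyte/macrophage sums rest mainly on Ly6c2.

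The called genes were also compared within each sex. Between the females (55 and 63) the log2 ratio of knockout to control was -4.82 for Tlr1, -1.54 for Tlr4, 1.53 for Cd180 and 1.49 for Ly86. Between the males (69 and 51) it was -3.42, -1.97, 2.29 and 2.03 for the same genes in that order. Each of the 4 moved the same way in both pairs. For each of them both knockouts lay on the same side of both controls, so any pairing gives this result. The shared direction therefore adds no support.

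Other genes of the pathway moved in both directions. Across all genes tested 22.2% were called, 11.3% higher and 10.9% lower, and the counts in each list stand beside these shares. No list was tested as a set. In a list of endosomal Toll-like receptors and Unc93b1, the protein that carries them there, 2 of 7 tested genes rose and 1 fell, with a median log2 fold change of 1.82. With a library left out that median ranged from 1.23 to 2.81. Tlr7, a receptor for single-stranded RNA, rose from 24.8 ± 12.4 to 265 ± 47.4 CPM (SD, n = 2) and Tlr12, a profilin receptor, from 10.5 ± 2.57 to 86.0 ± 6.97 CPM, with edgeR adjusted p-values of 0.0077 and 0.00496. Tlr13, which recognises bacterial ribosomal RNA, fell from 4.08 ± 0.0700 to 0.289 ± 0.221 CPM. Calls in both directions were thus seen among endosomal receptors too.

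Of 6 chaperone and accessory genes 1 rose (2 without control 55) and 1 fell, with a median of 0.17. Lbp, which encodes the lipopolysaccharide-binding protein that delivers the lipid to CD14, was at 9.63 CPM in control 55, 5.75 CPM in control 69, 0.743 CPM in knockout 51 and 0.332 CPM in knockout 63. It fell by 3.81 ± 0.55 (SE) on the log2 scale, with an edgeR adjusted p of 0.0126. Cnpy3, a chaperone that Toll-like receptors need to leave the endoplasmic reticulum, rose from 74.8 ± 5.94 to 140 ± 19.1 CPM (SD, n = 2; edgeR adjusted p 0.0175, or 0.0979 without knockout 63).

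Of 18 genes of signalling close to the receptor 2 rose, 3 fell and 13 were not called, with a median of -0.09. Tirap, the adaptor that brings MyD88 to TLR2 and TLR4 at the surface, fell from 30.7 ± 10.7 to 7.94 ± 0.154 CPM (SD, n = 2; log2 fold change -1.95 ± 0.30, SE). Myd88, the adaptor shared by most Toll-like receptors, rose from 49.8 ± 0.0479 to 88.0 ± 4.82 CPM (log2 change 0.82 ± 0.13, SE). The edgeR adjusted p was 0.0142 for Tirap and 0.0157 for Myd88. Btk, a kinase of B cell receptor signalling that also acts below Toll-like receptors, fell by 0.83 ± 0.14 (SE) on the log2 scale. Without knockout 51 Myd88 and Btk had edgeR adjusted p-values of 0.0902 and 0.0930, and without knockout 63 of 0.0725 and 0.0898. In each case 1 gene of the list was called.

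Of 11 genes of the NF-kappaB module 1 fell and 10 were not called, with a median of -0.06. Without control 69, 3 fell. With all libraries the one that fell was Nfkbia, the inhibitor that NF-kappaB itself induces, from 316 ± 136 to 100.3 ± 32.1 CPM (SD, n = 2). Without knockout 63 its edgeR adjusted p was 0.104. Of 14 tested negative regulators 4 fell and 10 were not called, with a median of -0.55. Without knockout 51, and again without knockout 63, 2 fell. Irak3, a kinase-like brake on receptor signalling found mainly in myeloid cells, fell from 29.9 ± 0.801 to 4.01 ± 0.460 CPM. Atf3 and Tnfaip3, a repressor and a ubiquitin-editing enzyme that are both induced by such signalling, fell by 2.73 ± 0.34 and 1.32 ± 0.26 (SE) on the log2 scale, with edgeR adjusted p-values of 0.00956 and 0.0235. Tnfaip3 was not called without knockout 51 (0.0711) or without knockout 63 (0.0834).

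Response genes went both ways, with 4 of 11 tested rising, 2 falling and a median of -0.14. Without knockout 51, 1 rose, and without control 55 or knockout 63, 1 fell. The chemokine gene Ccl4 rose from 10.8 ± 0.223 to 96.0 ± 12.7 CPM (SD, n = 2) and the cytokine gene Tnf from 8.23 ± 1.48 to 21.5 ± 2.58 CPM, though without knockout 51 Tnf had an edgeR adjusted p of 0.0766. Il1b, which encodes interleukin-1 beta, fell from 5.17 ± 1.78 to 0.327 ± 0.134 CPM. Of 12 transcription factor genes 2 rose and 4 fell, with a median of -0.54. Irf8, a factor of dendritic cells and B cells, rose from 462 ± 204 to 3337 ± 704 CPM, whereas Irf4 fell from 598 ± 154 to 107 ± 19.4 CPM and Cebpe, a factor of neutrophil granule genes, from 14.8 ± 1.16 to 0.273 ± 0.245 CPM. The neutrophil and dendritic sums given above moved with these genes too, but the neutrophil list includes Cebpe and the dendritic list Irf8. The part of these cells was not tested.

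**Figure D5:**
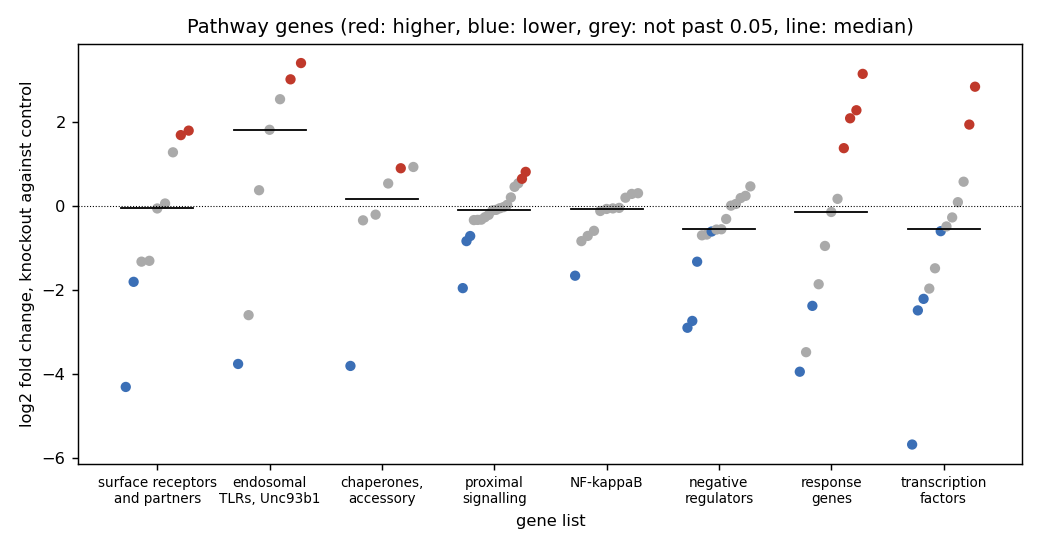
Log2 fold change of knockout against control for the 9 surface receptor genes and for 7 lists of pathway genes, 1 point per tested gene, red and blue for adjusted p under 0.05 and a line at the median. The surface receptors spread from -4.31 to 1.80, the proximal signalling list from -1.95 to 0.82 and the transcription factors from -5.68 to 2.85.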

How the data were processed

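RNA was sequenced from sorted pro-B cells of 4 mice, 2 per genotype. Per the submitters' processing notes, the tools included the aligner STAR (2.7.4a), featureCounts from Subread (2.0.0) and DESeq2, and the builds GRCm38 and mm10. Not given in the sources used here are the annotation, the strand setting and how multi-mapped reads were handled. The authors deposited raw counts per gene symbol, and these whole numbers were the input. A second deposited table, the counts of fewer genes times 1 factor per library, was not used.

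The fit used edgeR 4.0.16 (R 4.3.3): filterByExpr (minimum count 10, minimum total 15), TMM scaling, and the quasi-likelihood F test without covariates over 4 libraries, adjusted by Benjamini-Hochberg over 13507 genes at 0.05. A standard error is the log2 change divided by the root of F. The biological coefficient of variation was 0.251, and 3 counts corresponded to 0.0743 to 0.113 CPM, for counting error only. The procedure was tested on simulated data. Exon lengths, coordinates and 50-base windows are from GENCODE vM21, promoters and neighbouring genes from RefSeq GRCm38.p6. Lengths enter only the CPM per kb.

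Members, lists and the rule for named genes were chosen with earlier results of these data known. Named were the 9 members, Tnpo3, up to 3 called genes per pathway list with the lowest adjusted p, and the 3 nearest profiles to the 2 most abundant members. Mast4, Cd24a, Spn, marker genes and the neighbours of Tlr1 were added after their values were seen. Alternatives were DESeq2 size factors or no scaling in edgeR, an unfiltered table, a stricter filter (a mean of 50 counts and 1 CPM in 2 libraries), limma-voom (limma 3.58.1), DESeq2 1.42.0, sex as a block, and each library left out. With 1 library left in a genotype, it is assumed to vary like the others.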

Additional observations from a re-analysis of the deposited data

Results flagged for a closer look

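Tlr2 and Ly96 moved in opposite directions in the 2 sexes, which is what drew attention to them. The log2 ratio of knockout to control for Tlr2 was -0.21 in the female pair and 0.36 in the male pair. For Ly96 it was -0.25 in the female pair and 0.23 in the male pair. With 1 mouse per sex and genotype the difference between sexes was not tested, and each ratio compares 2 libraries. For both genes the knockouts lay between the controls, so any pairing of knockouts with controls gives opposite signs. Both genes overlapped between the genotypes and were not called.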

How the results depend on the processing

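Control and knockout mice share no number, so none paired them. With sex as a block, which pairs mice 55 and 63 and mice 69 and 51, 5 members were called: the 4 called without it and Tlr6. Over all 13507 genes tested, 4323 were called with this block and 2992 without it, so calls became more frequent in the whole table. Over 11 alternatives, of 98 values for single members 85 kept direction and side of the threshold. Without knockout 63 only 1 member (Tlr1) was called, and over the single libraries left out 1 to 4 were called. Tlr4, Cd180 and Ly86 lost their call without knockout 63, and Tlr4 also without knockout 51, as given above. Their log2 fold changes with a library left out ranged from -2.14 to -1.30, from 1.32 to 2.58 and from 1.29 to 2.29. Tlr6 passed in edgeR without scaling (-1.34, adjusted p 0.0486), without a filter (-1.29, 0.0397) and with sex as a block (-1.33, 0.0471). It also passed with DESeq2 (-1.31, 0.011) and with limma-voom (-1.32, 0.0475). It did not pass in edgeR with DESeq2 size factors (-1.31, 0.0532), with the stricter filter (-1.30, 0.057) or with any library left out. Log2 fold changes near 0 changed sign: Tlr2 was at -0.11 without control 69 and -0.03 without knockout 51 (range -0.11 to 0.30), and Ly96 at 0.39 without control 55 and 0.07 without knockout 51 (range -0.37 to 0.39). Genes called over the whole table numbered 1616 without knockout 51 and 1277 without knockout 63, against 2992 (range 1277 to 3229 with a library left out). The stricter filter removed Cd14. With a library left out, pathway medians ranged from 1.23 to 2.81 for the endosomal receptor list, from 0.00115 to 0.576 for chaperones, from -0.26 to 0.0179 for proximal signalling, from -0.508 to -0.322 for negative regulators, from -0.969 to 0.179 for response genes and from -0.792 to -0.40 for transcription factors. Causes were not tested. Cd14 had 21 to 87 counts and Tlr5 32 to 114 per library.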
